A study of Homo sapiens with 6 samples.

Results

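Noggin, gremlin and follistatin, secreted antagonists of the bone morphogenetic protein (BMP), activin and transforming growth factor β (TGF-β) family, and 5 ligands of that family were followed in the open chromatin of RH30 cells with and without MyoD. The antagonists were NOG, GREM1 and FST, and the ligands were MSTN (myostatin), BMP2, BMP4, INHBA (the activin A subunit) and TGFB2. Peaks that overlapped between the 6 libraries were joined into 105569 regions, and the 188 regions whose highest summit lay in the body of 1 of these 8 genes or within 250 kb of it were kept. NOG was chosen on the readout itself. The region that all vector libraries called, that no MyoD-deleted library called and that ranked highest by fold enrichment lies nearest to NOG. The other 7 genes were added as members of the same pathway with earlier results of these data known. Calls near NOG are therefore given as a description, without p-values, and support nothing. The window is a matter of distance only, and a region in it was not shown to act on the gene. For 139 of the 188 regions the gene itself had the nearest 5′ end among protein-coding genes.

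RH30 is a fusion-positive rhabdomyosarcoma line, a tumor of the skeletal muscle lineage. Both groups received Cas9. The vector group (3 libraries) also received a scramble guide, and the MyoD-deleted group (3 libraries) received guides against MyoD, and the labels call the libraries of each group biological replicates. Whether the MyoD-deleted cells were a pool or a clone is not given in the sources used here. The labels name RH30, whereas a passage of the study's results names RH30 cells that carry an IκBα super repressor, so the background of these cells is unsettled. ATAC-seq cuts accessible DNA with the Tn5 transposase, and each deposited file lists the peaks of 1 library.

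Ligands of this family bind pairs of serine/threonine kinase receptors, which phosphorylate SMAD proteins that enter the nucleus and switch genes on or off. Noggin and gremlin hold BMPs away from their receptors, and follistatin binds activins and myostatin. In skeletal muscle, BMP signals keep progenitors from differentiating, myostatin limits muscle mass, and follistatin relieves that limit. MyoD is the basic helix-loop-helix factor that drives muscle differentiation. It binds E boxes, foremost CAGCTG, and opens chromatin around them.

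The vector libraries held 63140 to 74121 peaks and the MyoD-deleted libraries 73745 to 80608. Summit height, the measure used below, is log2 of the fragments piled up at the summit over the smallest background rate of that library, set to 0 at the median of the 47885 regions called in all 6 libraries (shared regions). Without that centring the median shared region was 0.19 higher (log2) in the MyoD-deleted libraries. The smallest background, the only trace of depth in the files, was 2.22 to 3.41 fragments in the vector group and 2.27 to 2.35 in the MyoD-deleted group. Of 10 skeletal muscle genes, 8 had a region at the 5′ end in all 6 libraries, against 0 of 10 genes of other cell types. MYOD1 itself had a region at its 5′ end in all 6 libraries. Its 5′ region fell by 0.49 ± 0.10 (SE, log2 height, limma, adjusted p = 0.0021), and by 0.29 without centring (limma, adjusted p = 0.093). A guide cuts the sequence and need not close the chromatin, so this value does not check the deletion.

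Near the 8 genes, more shared regions fell than rose on the centred scale. Of the 81 shared regions, 6 were higher in the MyoD-deleted libraries (7.41%, against 11.4% of all shared regions) and 15 were lower (18.5%, against 12.8%), by limma with Benjamini-Hochberg adjustment over all 47885. In all 21 the 3 libraries of 1 group lay above the 3 of the other, which passing the test favours and which adds no support. The other 60 did not pass, and in some of these the groups lay apart too, as 10.4 kb downstream of the 5′ end of FST. The share of all shared regions with groups apart was not counted. In a bulk library, a site less open in every cell and a site open in fewer cells cannot be told apart. The median change was -0.0048 (log2) over the 81 regions and 0.04 over all shared regions. The counts turned with the scale. Without centring, 17 were higher and 10 lower, where 24.7% and 8.03% of all shared regions were called. Set against all shared regions, the calls leaned the same way on both scales. Centring moves the change of every region by the same amount, so this likeness adds no support. With centring, 28.6% of the called regions near these genes were higher, against 46.9% of all called. Without centring these shares were 63.0% and 75.5%. Ranked by fold enrichment within a library, 1 was higher and 5 were lower, where 4.12% and 4.67% of all were called. A lost region was called in 3 of 3 vector and 0 of 3 MyoD-deleted libraries, and a gained region the reverse. There were 5 lost regions (2.66% of 188, against 1.78% of all regions) and 10 gained regions (5.32%, against 4.56%), both shares near those of all regions. NOG was chosen on a lost region, and its window gave 2 of these 5, 3 of the 6 higher and 2 of the 15 lower regions. The shares of lost, higher and lower regions therefore include calls near NOG, which support nothing. The remaining 92 regions were called in some libraries of 1 or both groups, 31 in more vector libraries, 53 in more MyoD-deleted libraries and 8 in as many of each. The same split over the 50985 such regions of the genome was not counted. The MyoD-deleted libraries held more peaks everywhere (mean 78264, against 67315 in the vector group), so the split is not read as a result about these genes.

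**Figure D1:**
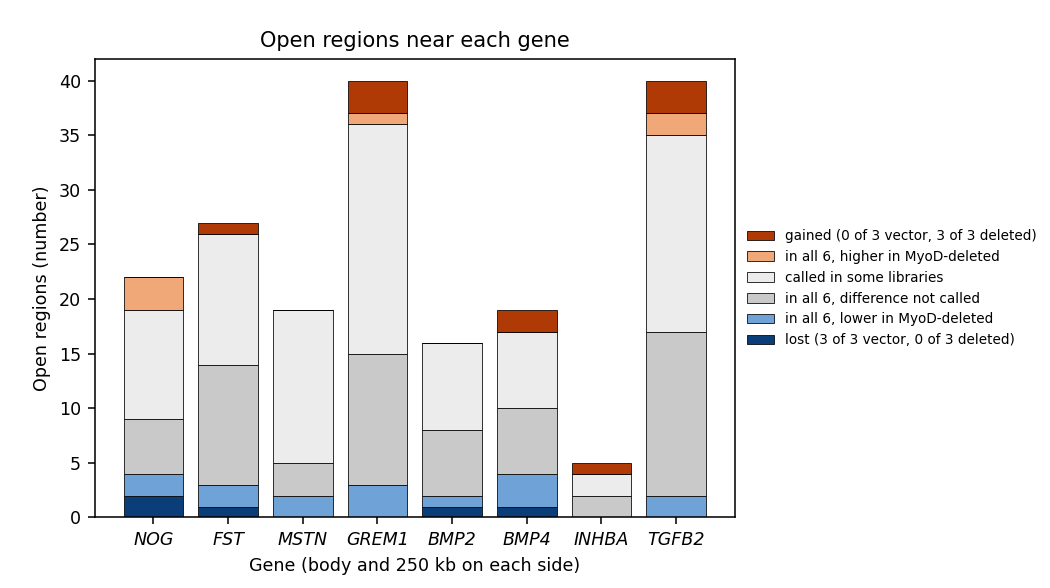
Number of open regions (y axis) in the body or within 250 kb of each gene (x axis), split by how they were called in 3 vector and 3 MyoD-deleted libraries. NOG has 2 lost and 0 gained regions, whereas GREM1 and TGFB2 have 0 lost and 3 gained regions each.

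The genes differed in how many regions surrounded them and in how these were called. GREM1 and TGFB2 had 40 regions each, FST 27, NOG 22, MSTN and BMP4 19 each, BMP2 16 and INHBA 5. NOG alone of the 8 had 2 lost regions, and 8.63% of the 20007 protein-coding genes had at least as many in their windows. Since 1 of these 2 is the region on which NOG was chosen, that share does not measure how unusual NOG is. FST, BMP2 and BMP4 had 1 lost region each. GREM1 and TGFB2 had 3 gained regions each, BMP4 2, and FST and INHBA 1 each, and 17.4% of protein-coding genes had at least 3. Higher shared regions lay near NOG (3), TGFB2 (2) and GREM1 (1). The lower ones were spread over GREM1 (3), BMP4 (3), NOG (2), FST (2), MSTN (2), TGFB2 (2) and BMP2 (1). Of all protein-coding genes, 28.0% had at least 3 higher, 44.2% at least 2 higher, 25.0% at least 3 lower and 41.7% at least 2 lower regions in their windows.

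The sequences of 8 windows on which the account turns are given here, each 201 bases centred on the highest summit, read from GRCh38 on the plus strand. Capitals mark motifs, which were searched on both strands and do not overlap one another here. The E boxes were CAGCTG and CAGGTG. The AP-1 motif was TGACTCA, and the TEAD motif was GGAATG. The first is the lost region upstream of NOG, which holds none of these motifs, at chr17:56347771-56347971. It does hold CANNTG in other forms at 2 places. The neighbouring region that fell, at chr17:56358781-56358981, holds an AP-1 motif, and the region that rose most, at chr17:56699619-56699819, holds an AP-1 and a TEAD motif.
NOG 245.8 kb upstream: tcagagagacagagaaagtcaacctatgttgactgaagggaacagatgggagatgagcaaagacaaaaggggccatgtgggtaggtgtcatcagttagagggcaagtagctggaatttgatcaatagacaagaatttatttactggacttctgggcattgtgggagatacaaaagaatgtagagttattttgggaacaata
NOG 234.8 kb upstream: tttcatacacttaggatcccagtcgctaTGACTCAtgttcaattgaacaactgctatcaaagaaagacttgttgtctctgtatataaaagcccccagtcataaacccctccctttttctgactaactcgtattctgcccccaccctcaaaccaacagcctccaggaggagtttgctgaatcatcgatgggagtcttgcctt
NOG 106.0 kb downstream: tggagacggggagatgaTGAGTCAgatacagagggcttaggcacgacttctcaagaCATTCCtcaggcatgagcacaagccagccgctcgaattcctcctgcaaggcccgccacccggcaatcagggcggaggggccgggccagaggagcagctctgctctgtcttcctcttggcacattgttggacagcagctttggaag

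Among the lower regions, that of BMP2 at chr20:6698139-6698339 is shown because it holds all 4 motifs, that of BMP4 at chr14:53772953-53773153 because it holds CAGCTG at 2 places, that of MSTN at chr2:190060787-190060987 because it lies inside the gene, and that of GREM1 at chr15:32573003-32573203 because it ranked near the top of every library and holds CAGGTG without CAGCTG. The TGFB2 window at chr1:218369791-218369991 is shown as the exception, a region with CAGCTG that rose.
BMP2 69.4 kb upstream: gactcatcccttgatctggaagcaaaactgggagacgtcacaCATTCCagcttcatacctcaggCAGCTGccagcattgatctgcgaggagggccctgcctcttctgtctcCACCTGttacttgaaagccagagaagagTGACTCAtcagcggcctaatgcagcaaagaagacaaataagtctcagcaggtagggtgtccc
BMP4 185.7 kb downstream: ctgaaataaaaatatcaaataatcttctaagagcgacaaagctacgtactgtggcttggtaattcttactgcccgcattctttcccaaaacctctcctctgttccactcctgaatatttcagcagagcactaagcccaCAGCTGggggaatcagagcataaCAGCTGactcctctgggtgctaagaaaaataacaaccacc
MSTN 1.8 kb downstream: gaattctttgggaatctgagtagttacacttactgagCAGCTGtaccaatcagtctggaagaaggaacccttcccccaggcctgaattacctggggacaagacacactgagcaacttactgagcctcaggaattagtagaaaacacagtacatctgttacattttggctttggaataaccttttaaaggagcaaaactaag
GREM1 144.9 kb upstream: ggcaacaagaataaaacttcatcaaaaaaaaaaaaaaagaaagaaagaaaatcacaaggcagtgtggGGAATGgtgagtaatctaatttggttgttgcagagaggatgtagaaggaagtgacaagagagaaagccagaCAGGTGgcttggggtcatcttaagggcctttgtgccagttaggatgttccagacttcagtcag
TGFB2 24.6 kb downstream: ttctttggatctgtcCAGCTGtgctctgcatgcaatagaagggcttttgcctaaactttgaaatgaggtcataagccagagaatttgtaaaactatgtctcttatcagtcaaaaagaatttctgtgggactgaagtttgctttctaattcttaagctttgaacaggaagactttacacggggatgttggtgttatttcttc

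NOG encodes noggin, which binds BMPs outside the cell. It lies on the plus strand of chromosome 17 (56593699 to 56595611, ENSG00000183691.6). Its lost region, 245.8 kb upstream at 56347551 to 56348527 in an intron of ANKFN1, held 81, 71 and 70 fragments at the summit in vector libraries 1, 2 and 3. These heights of 0.00, 0.34 and 0.08 place it near the median shared region, and its fold enrichment stood at the 92.1, 93.8 and 93.0 percentile of each library. No MyoD-deleted library called a peak there. A call would have needed 11 fragments in each of them at the same relative background, where 60.9 to 63.0 would be present at the vector height. How far the signal fell below the calling limit cannot be read from lists of peaks.

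Next to it, 234.8 kb upstream (56358365 to 56359450, the same intron), a region called in all 6 libraries was lower without MyoD. Its heights were 0.00, 0.00 and 0.06 in the vector group and -1.61, -1.34 and -1.44 in the MyoD-deleted group. The groups lay far apart, and the height fell by 1.49 ± 0.18 (SE, log2), a 2.80-fold lower pileup. Without centring it fell by 1.30.

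The second lost region of NOG lay 9.3 kb downstream, in intergenic DNA at 56602388 to 56603216, with 78, 42 and 61 fragments in the vector libraries. It stood on a raised local background, 4.16 times the smallest of the library on average, and its fold enrichment reached only the 21.1 to 29.2 percentile. A call there would have needed 20 to 21 fragments in a MyoD-deleted library, where 48.2 to 49.9 would be present at the vector height. Further downstream, at 88.0 kb (56681299 to 56682290), a tall region with both E boxes had heights of 2.21, 1.91 and 1.95 in the vector group and 1.44, 1.63 and 1.24 in the MyoD-deleted group. It was lower by a smaller step, and fell by 0.59 ± 0.12 (SE, log2).

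Further downstream, 3 regions were higher without MyoD. At 106.0 kb (56699204 to 56700074) the heights were -0.34, -1.56 and -1.46 in the vector group and 0.53, 1.13 and 0.44 in the MyoD-deleted group. Every MyoD-deleted library lay above every vector library, with a change of 1.82 ± 0.26 (SE, log2; 3.53-fold higher), and vector library 1 stood above the other vector libraries. The regions at 163.0 kb (change 0.99 ± 0.21) and 193.5 kb (0.97 ± 0.27) lay nearer to the 5′ end of DGKE, a diacylglycerol kinase gene, than to that of NOG. A shared region with CAGCTG lay at 114.1 kb, between those at 106.0 and 163.0 kb. Its mean heights were -0.58 ± 0.22 in the vector group and -1.14 ± 0.17 in the MyoD-deleted group (SD, n = 3). The change of -0.56 ± 0.20 did not pass. In all 3 higher regions, vector library 1, whose smallest background (3.41) was the highest of the 6 libraries, was the highest of its group, and the part of depth in these values was not tested.

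**Figure D2:**
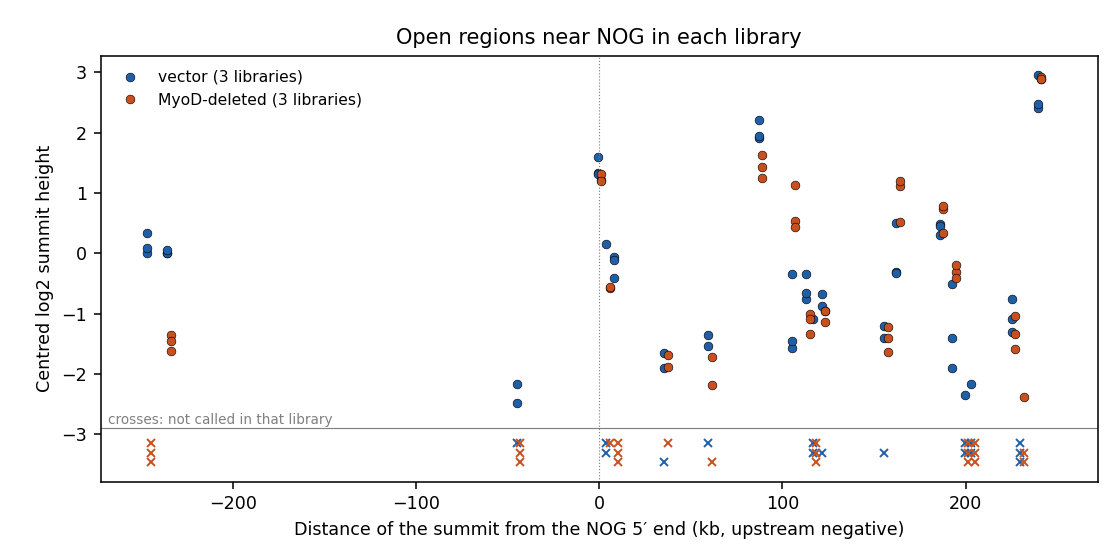
Centred log2 summit height (y axis) of the 22 regions near NOG against the distance of the summit from its 5′ end (x axis, kb), with 1 point per library and crosses where a library called no peak. Both regions over 200 kb upstream are lost or lower in the MyoD-deleted libraries, and the 3 higher regions lie between 106.0 and 193.5 kb downstream.

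At the 5′ end of NOG itself (56592598 to 56594665, reaching into its first exon) the heights were 1.33, 1.31 and 1.60 in the vector group and 1.22, 1.32 and 1.20 in the MyoD-deleted group. The groups overlapped, and the change of -0.17 ± 0.12 (SE, log2) did not pass. Its sign depends on the scale. It was 0.02 without centring, and the rank of its fold enrichment went from the 29.1, 36.7 and 38.5 percentile to the 57.4, 60.7 and 66.0 percentile. Fold enrichment is divided by the local background. That background, as log2 over the smallest of the library, was 3.60, 3.28 and 3.55 in the vector group and 2.83, 2.96 and 2.73 in the MyoD-deleted group.

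GREM1 encodes gremlin 1, another BMP antagonist, on the plus strand of chromosome 15 (32718004 to 32745106). Lower, higher and gained regions all lay near it. A region among the strongest of its window by rank lay 144.9 kb upstream (32572615 to 32573566), in an intron of the long non-coding RNA gene LINC02256, at or above the 98.5 percentile in every library. Heights there were 1.04, 1.48 and 1.55 in the vector group and 0.67, 0.70 and 0.40 in the MyoD-deleted group. The groups did not overlap, and the height fell by 0.76 ± 0.14 (SE, log2; 1.70-fold; limma, adjusted p = 0.00079). It is nearer to the 5′ end of GOLGA8N, a member of a golgin family with near-identical copies, than to that of GREM1. A pair of CAGCTG regions fell as well.

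The nearer of that pair, 61.4 kb upstream in introns of SCG5 (32656122 to 32657004), had heights of 0.39, -0.08 and 0.36 in the vector group and -0.57, -0.80 and -0.39 in the MyoD-deleted group, and fell by 0.81 ± 0.18 (SE, log2; limma, adjusted p = 0.0030). The other, 154.8 kb downstream in an intron of FMN1 (32872319 to 32873394), had 0.37, 0.28 and 0.18 against -0.27, -0.62 and -0.47, and fell by 0.73 ± 0.16 (limma, adjusted p = 0.0026). In both, all vector libraries stood above all MyoD-deleted libraries. By rank of fold enrichment the region 61.4 kb upstream did not pass (limma, adjusted p = 0.065). An FMN1 intron region with an AP-1 motif, 107.0 kb downstream (32824529 to 32825494), went the other way. Its heights were -1.30, -1.42 and -1.96 against -0.73, -0.65 and -0.84, a change of 0.82 ± 0.22 (limma, adjusted p = 0.010), which lost its call without vector library 3 (0.62, limma, adjusted p = 0.063).

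The 3 gained regions of GREM1 lay 58.3 and 33.6 kb upstream, in introns of SCG5, and 84.4 kb downstream in FMN1. Their summits held 28, 55 and 22 fragments, 28, 37 and 36 fragments, and 13, 15 and 14 fragments in MyoD-deleted libraries 1, 2 and 3. For the last, a call in the vector libraries needed 8 to 10 fragments at that background, where 13.5 to 20.8 would be present at the MyoD-deleted height. At the 5′ end of GREM1 (32717311 to 32718281) the groups overlapped, with heights of 0.75, 0.58 and 0.85 against 1.02, 1.01 and 0.72. The change of 0.19 ± 0.13 did not pass (limma, adjusted p = 0.33), and it was 0.38 without centring (limma, adjusted p = 0.047).

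FST encodes follistatin, the secreted inhibitor of activins and myostatin, on the plus strand of chromosome 5 (53480626 to 53487134). Few regions near it passed. The region at its 5′ end (53479387 to 53481015) had heights of 0.61, 0.57 and 0.84 in the vector group and 0.90, 0.58 and 0.57 in the MyoD-deleted group. These values intermingle, with a change of 0.01 ± 0.14 (SE, log2; limma, adjusted p = 0.97). Directly upstream, a separate region 1.9 kb from the 5′ end (53478466 to 53479336) stood at 0.54, 0.64 and 0.67 against 0.16, 0.00 and 0.39, and fell by 0.43 ± 0.14 (limma, adjusted p = 0.035). Leaving out any 1 of 4 libraries ended that call, with limma adjusted p-values up to 0.15, and so did the uncentred scale (limma, adjusted p = 0.26). A region 168.8 kb upstream, in an intron of the long non-coding RNA gene ENSG00000285831, fell by 0.64 ± 0.21 (limma, adjusted p = 0.034) and lost its call when any of 5 libraries was left out and without centring (limma, adjusted p = 0.10). Its lost region, 191.8 kb upstream, held 24, 12 and 16 fragments against 8 needed, and its gained region, 230.8 kb upstream, held 34, 45 and 32 against 19 to 26 needed. Both lay nearer to MOCS2, a molybdenum cofactor gene, than to FST.

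MSTN encodes myostatin, the ligand that restrains muscle growth, on the minus strand of chromosome 2 (190055700 to 190062729). Its window held 19 regions but only 5 shared ones, and 2 of these fell. Within introns of both MSTN and C2orf88, 1.8 kb downstream of the 5′ end of MSTN (190059920 to 190061401), a CAGCTG lies 60 bases from the summit. The heights there were -0.73, -0.76 and -0.87 in the vector group and -1.21, -1.80 and -1.56 in the MyoD-deleted group. The groups did not overlap, and the height fell by 0.74 ± 0.21 (SE, log2; 1.67-fold; limma, adjusted p = 0.016). The call was lost without vector library 2 or MyoD-deleted library 2 (limma, adjusted p up to 0.082). It was also lost without centring (limma, adjusted p = 0.057) and by rank (limma, adjusted p = 0.11).

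The stronger of the pair, 117.8 kb upstream in an untranslated exon of C2orf88 (190180011 to 190181258), also holds CAGCTG. It stood at 1.47, 1.44 and 1.59 against 1.04, 0.89 and 0.81, and fell by 0.59 ± 0.11 (limma, adjusted p = 0.0010). That call held with each library left out, but not by rank (limma, adjusted p = 0.10). At the 5′ end of MSTN (190061927 to 190062869) the heights were low and intermingled, -0.85, -1.05 and -1.34 against -0.86, -1.80 and -1.23, with a change of -0.21 ± 0.24 (limma, adjusted p = 0.59). No region of the window was lost or gained.

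BMP2 and BMP4 are closely related ligands that noggin and gremlin bind. Around BMP2 (chromosome 20, 6767686 to 6780246, plus strand) the largest fall was 69.4 kb upstream in intergenic DNA (6697562 to 6698912), with heights of -0.04, -0.49 and -0.69 in the vector group and -1.47, -1.87 and -1.84 in the MyoD-deleted group. All 3 vector libraries stood above all MyoD-deleted libraries. The height fell by 1.32 ± 0.22 (SE, log2; 2.50-fold; limma, adjusted p = 0.00028), and the call held with each library left out. At the 5′ end of BMP2 (6767374 to 6767922) the heights were -1.48, -1.22 and -1.09 against -1.69, -1.52 and -1.50. These groups lay just apart, and the change of -0.31 ± 0.21 did not pass (limma, adjusted p = 0.33). The lost region, 99.3 kb downstream, held 28, 13 and 14 fragments where 8 were needed and 14.2 to 14.7 would be present at the vector height.

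BMP4 lies on the minus strand of chromosome 14 (53949736 to 53958761). The 3 shared regions near it that passed all fell, all lay downstream of its 5′ end, and all hold CAGCTG. The pair at 185.7 and 191.0 kb lies in introns of the long non-coding RNA gene LINC02331. At 185.7 kb (53772242 to 53773503) the heights were 0.90, 1.28 and 1.04 in the vector group and 0.21, -0.14 and 0.64 in the MyoD-deleted group, and the region fell by 0.84 ± 0.17 (SE, log2; limma, adjusted p = 0.0016). At 191.0 kb (53767004 to 53768203) they were 0.21, 0.75 and 0.26 against -0.13, -0.92 and -0.16, a fall by 0.81 ± 0.21 (limma, adjusted p = 0.0082). MyoD-deleted library 2 was the lowest in both. Without it the call at 191.0 kb was lost (fell by 0.55, limma, adjusted p = 0.053), as it was without vector library 2 (fell by 0.64, limma, adjusted p = 0.070). The call at 185.7 kb held with each library left out, but by rank of fold enrichment neither region passed (limma, adjusted p = 0.45 at 185.7 kb and 0.64 at 191.0 kb). The region at 77.4 kb fell by 0.64 ± 0.18 (limma, adjusted p = 0.016), and its call was lost without vector library 2 or MyoD-deleted library 2, and without centring (limma, adjusted p = 0.082).

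No region lay within 1 kb of the annotated 5′ end of BMP4. The nearest tall one, 5.3 kb inside the gene (53952585 to 53954124), covers a start that RefSeq places further downstream. Its heights were 1.57, 1.90 and 2.09 in the vector group and 1.65, 1.32 and 1.62 in the MyoD-deleted group. The groups overlapped, and the change of -0.32 ± 0.13 did not pass (limma, adjusted p = 0.084). The 2 gained regions of BMP4, 33.8 kb downstream and 231.2 kb upstream, each hold an AP-1 motif, with 12, 11 and 17 and 15, 20 and 12 fragments. Its lost region, 210.9 kb upstream, held 39, 11 and 19 fragments. A call in the MyoD-deleted libraries needed 8, where 16.6 to 17.2 would be present at the vector height. The 11 of vector library 2 are close to that limit.

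INHBA encodes the subunit that forms activin A, a ligand that follistatin neutralises, on the minus strand of chromosome 7 (41667168 to 41705834). Of the 8 genes, INHBA had a gained region within 1 kb of its annotated 5′ end, and the other 7 did not. That region (41705042 to 41705455) covers an untranslated exon and holds CAGGTG. It does not cover the promoter that RefSeq places further into the gene, at 41703041 to 41703340. No vector library called it, and the MyoD-deleted libraries held 16, 20 and 25 fragments at its summit, low heights of -1.86, -1.72 and -1.44. A call in the vector libraries would have needed 8 to 10 fragments, where 19.4 to 29.7 would be present at the MyoD-deleted height. The 2 shared regions of the window changed by 0.01 and 0.21, and neither passed.

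TGFB2 encodes TGF-β2, on the plus strand of chromosome 1 (218345336 to 218444619), and regions moved in both directions within it. In an intron 24.6 kb downstream of the 5′ end (218369598 to 218370656) the heights were -1.48, -1.90 and -1.87 in the vector group and -0.69, -0.58 and -0.39 in the MyoD-deleted group. The groups lay apart, and the region rose by 1.20 ± 0.21 (SE, log2; 2.30-fold; limma, adjusted p = 0.00041), with a CAGCTG 82 bases from its summit. That rise did not pass by rank of fold enrichment (limma, adjusted p = 0.076). In the same gene at 39.5 kb (218384384 to 218385416) a taller region stood at 1.85, 1.92 and 2.02 against 1.42, 1.30 and 1.62. This taller region fell by 0.48 ± 0.11 (limma, adjusted p = 0.0034). It did not pass without centring (limma, adjusted p = 0.096) or by rank (limma, adjusted p = 0.14). It holds an AP-1 motif and neither CAGCTG nor CAGGTG.

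Outside the gene, 8.8 kb upstream in an untranslated exon of RRP15 (218336021 to 218337142), a CAGCTG region with heights of -0.32, 0.05 and -0.29 against -0.86, -1.29 and -0.80 fell by 0.80 ± 0.20 (limma, adjusted p = 0.0059). At 151.5 kb the height rose by 0.42 ± 0.14 (limma, adjusted p = 0.038; 0.052 with the replicate block). The gained regions at 66.9 and 94.5 kb lie in TGFB2 introns, with 16, 17 and 20 and 31, 24 and 52 fragments, and the third lay 135.5 kb upstream with 17, 25 and 16. At the 5′ end of TGFB2 (218345256 to 218346371) the heights were -0.07, 0.19 and 0.33 against 0.35, 0.42 and 0.27. They overlapped, with a change of 0.20 ± 0.15 (limma, adjusted p = 0.39).

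**Figure D3:**
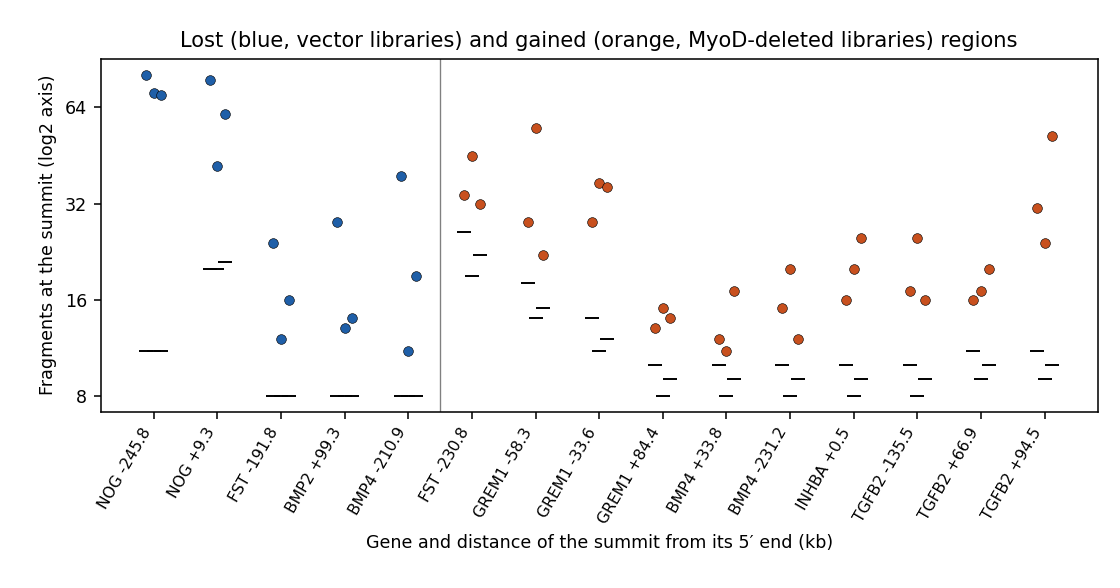
Fragments at the summit (y axis, log2 scale) of the 5 lost regions in the 3 vector libraries (blue) and of the 10 gained regions in the 3 MyoD-deleted libraries (orange), 1 point per library, each named by gene and distance (x axis). Black bars show the fragments a call would have needed in the 3 libraries of the other group. The lost region 245.8 kb upstream of NOG held at least 70 fragments where 11 were needed.

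Across the 8 genes, 6 had a shared region within 1 kb of the annotated 5′ end and none of the 6 passed the test, with changes from -0.31 (BMP2) to 0.20 (TGFB2) on the log2 scale. Over all shared regions 11.4% were higher and 12.8% lower, and 6 regions are too few to set against these shares. A region that did not pass is not shown to be unchanged. By the mean height of the vector libraries the order was NOG (1.41), GREM1 (0.73), FST (0.67), TGFB2 (0.15), MSTN (-1.08) and BMP2 (-1.26), each a mean of 3 with an SD of 0.13 to 0.25. GREM1 and FST, and likewise MSTN and BMP2, lay within that spread of each other. By fold enrichment the order differs, since the NOG region stood at the 29.1 to 38.5 percentile of the vector libraries and the BMP2 region at the 46.5 to 50.4 percentile. Heights of different regions also reflect their sequence and how the fragments pile up, and are no measure of transcription.

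**Figure D4:**
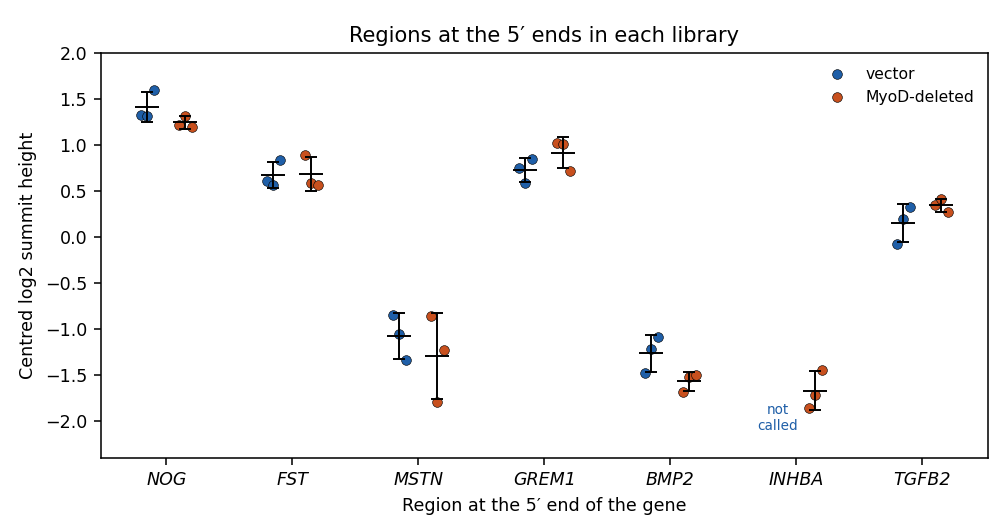
Centred log2 summit height (y axis) of the region at the 5′ end of 7 genes (x axis), with 1 point per library, the mean (bar) and the SD (whiskers) of 3 libraries. No vector library called the INHBA region, and no shared region here passed the test.

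**Figure D5:**
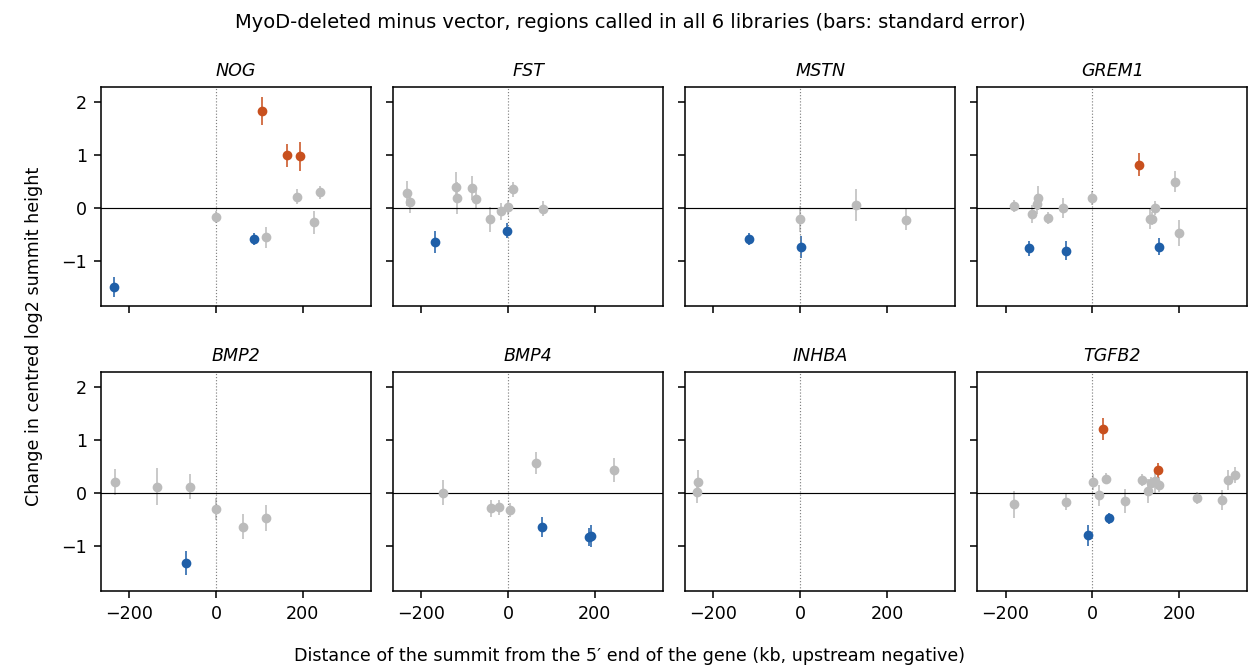
Change in centred log2 summit height (MyoD-deleted minus vector, y axis, bars: SE) of the 81 shared regions against distance from the 5′ end (x axis, kb), by gene. Blue points are the 15 lower and orange points the 6 higher regions, and grey points did not pass.

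CAGCTG, the E box that MyoD favours, lay within 100 bases of the summit in 10 of the 15 lower regions, 1 of the 6 higher, 11 of the 60 shared regions that did not pass, 0 of the 5 lost and 0 of the 10 gained regions. Over the genome it lay in 57.1% of lower, 54.8% of lost, 15.9% of higher and 13.2% of gained regions, and in 25.1% of all regions. The lost regions near these genes thus did not carry it, at a number too small for a comparison. The AP-1 motif TGACTCA was in 3 of the 6 higher, 2 of the 10 gained, 3 of the 15 lower and 0 of the 5 lost regions. Over the genome it was in 33.0% of higher, 27.4% of gained, 14.5% of lower and 10.0% of lost regions, and in 17.9% of all regions. CAGGTG was in 3 of the 15 lower regions and 0 of the 6 higher, against 29.9% of lower and 7.08% of higher regions of the genome (15.9% of all). The TEAD motif GGAATG was in 2 of the lower and 1 of the higher, against 16.6% and 24.3% over the genome (17.3% of all). The SMAD palindrome GTCTAGAC was in 0 of the 188 regions, and 0.183% of all regions hold it. A match is a description of these letters and not a bound site.

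In the RefSeq promoter table (GRCh38.p14, 300 bases a start), 6 of the 8 genes had an entry. The promoters of FST (63.7% GC) and GREM1 (67.3% and 77.0%) were rich in GC, and those of MSTN (36.0%) and INHBA (43.3%) were poor, against a median of 58.7% over 35116 promoters. None of the entries holds CAGCTG, which 18.0% of all promoters hold, and CAGGTG is in that of FST alone.

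The 78 other ligands, antagonists, receptors, SMADs and regulators of the pathway were counted over the body and 5 kb upstream. Of these genes, 71 had a region and 63 a shared one. Higher regions lay in 13 genes and lower regions in 13 (16.7% each, against 13.0% and 13.2% of all protein-coding genes), both in 2, and of their 171 shared regions 23 were higher (13.5%, against 11.4% of all) and 17 lower (9.94%, against 12.8%). At the 5′ end, 43 genes had a shared region and 2 passed, and the share of 5′ regions that passed over all genes was not counted. The TGFB1 region, at the gene of the founding ligand, was higher, with heights of 1.00, 1.01 and 1.39 in the vector libraries against 1.43, 1.44 and 1.59, a change of 0.35 ± 0.12 (limma, adjusted p = 0.047). The region of RGMA, a BMP co-receptor, was lower, at 1.69, 1.75 and 1.81 against 1.34, 1.15 and 1.11, and fell by 0.55 ± 0.11 (limma, adjusted p = 0.0012). Lost regions lay in 3 of the genes (3.85%, against 4.66% of all), BMP7, BMP8A and DCN (decorin), and gained regions in 10 (12.8%, against 11.0% of all), among them SMAD6, an inhibitory SMAD, with 3. These were named after their values were seen.

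By role, the receptors had 45 shared regions with 4 higher and 5 lower, the antagonists 35 with 6 and 5, the ligands 36 with 3 and 5, and the SMADs 29 with 7 and 2. The SMAD calls were led by SMAD3, a signal carrier of TGF-β and activin, with 4 higher among 13 shared regions. The 10 regulators and targets had 26, with 3 higher and 0 lower. Over all shared regions 11.4% were higher and 12.8% lower. The counts of lost, gained, higher and lower regions around NOG were matched exactly by 7 genes on other chromosomes, of which BBLN, CIZ1 and CLASRP came first by symbol. They had 54 to 75 regions in their windows, against 22 for NOG.

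At the edge of the windows the calls were mixed. Just inside lay a GREM1 region at 249.953 kb from the gene, called in 3 vector and 2 MyoD-deleted libraries, and the lost NOG region at 245.828 kb. Just outside lay a BMP4 region at 251.304 kb, called in 1 vector and 3 MyoD-deleted libraries, and a shared MSTN region at 255.91 kb that did not pass. The regions named at each gene were those at the 5′ end, all lost and gained ones and up to 3 shared ones of largest change. The NOG regions at 88.0 and 193.5 kb, the GREM1 region at 154.8 kb and the TGFB2 region at 151.5 kb passed but fell outside that rule, and were named after their values were seen, as were the NOG region at 114.1 kb and the BMP4 region 5.3 kb inside the gene.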

How the data were processed

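ATAC-seq of 6 RH30 libraries (3 vector, 3 MyoD-deleted, grouped by the treatment label) was analysed. The authors mapped the paired reads to hg38 with Rsubread, filtered for proper pairs, and ran MACS2 on each library by itself. The deposited score is the truncated −log10 q times 10, the deposited ratio is the fold enrichment at the summit over the local background, and the deposited −log10 p and −log10 q belong to that summit. No counts or read totals are held in these lists, so depth and counting error are unknown, and a count test was not possible. The study's comparison used read counts, not analysed here.

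The pileup and background of each peak were recovered from its fold enrichment and −log10 p under a Poisson model. Peaks that overlapped or touched were merged, and regions were placed by the summit of the peak of highest fold enrichment. Centred heights of shared regions were compared with limma 3.58.1 (eBayes with a mean trend after lmFit) and Benjamini-Hochberg adjustment at 0.05, with no pseudocount and no block. A 5′ region covered or lay within 1 kb of the 5′ end of the gene in GENCODE version 44, and for other pathway genes its summit lay within 1 kb. Fragments needed for a call were estimated from the smallest −log10 p called in each library at the same relative background. Alternatives were the rank of fold enrichment, no centring, peaks past a −log10 q of 5, the 63140 strongest peaks of each library, coverage of 50% of a region by a peak, regions in at least 2 libraries of each group, a replicate block, each library left out, windows of 100 kb or the gene body with 5 kb upstream, and, added after seeing the data, the nearest gene only. Steps were tested on simulated data. The members and lists were chosen with earlier results of these data known. The named regions were, per gene, the 5′ region, every lost and gained region, and up to 3 shared regions that passed with the largest change. For other pathway genes the 3 largest and 3 smallest changes at a 5′ region that passed were to be named, and for likeness to NOG the 3 genes on other chromosomes nearest in counts of lost, gained, higher and lower regions, with ties by symbol. Python 3.11.15, samtools 1.23.1 and R 4.3.3 were used.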

Additional observations from a re-analysis of the deposited data

How the results depend on the processing

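The lost regions numbered 3 at a −log10 q of at least 5, 2 in windows of 100 kb and 0 in the gene bodies with 5 kb upstream, and the gained regions 5 with equal numbers of peaks, 3 in the gene bodies with 5 kb upstream and 6 with the nearest gene only. The higher shared regions numbered 1 by rank, 17 without centring, 3 in windows of 100 kb and 1 in the gene bodies, and the lower ones 5, 10, 8 and 3. The narrower windows hold fewer regions, and the cause of the other differences was not tested. With 1 library left out, fewer libraries have to agree, and lost regions numbered 5 to 10, gained regions 10 to 19, higher regions 4 to 13 and lower regions 10 to 15. Without vector library 1, 19 regions were gained and 13 were higher, and without vector library 3, 10 were lost. Of the 17 regions named by the rule that passed, 11 passed with each library left out, 12 did not pass by rank and 5 did not pass without centring. At 5′ ends that did not pass, the sign turned for NOG by rank (0.6888 inverse-normal units) and without centring (0.0237), for MSTN by rank (0.1167) and with a library left out (-0.4321 to 0.0403), for FST with a library left out (-0.0961 to 0.0959), and for TGFB2 by rank (-0.3340). Replicate numbers did not pair the libraries (correlation of deviations of same-numbered libraries -0.0401, -0.203 and 0.0925). With the replicate block, 5 regions were higher and 14 lower, and the calls lost were the FST region 1.9 kb upstream (adjusted p = 0.051) and the TGFB2 region at 151.5 kb (adjusted p = 0.052). Depth is unknown, and a region missing from a list may lie just under the calling limit.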
